A study of Mus musculus with 12 samples.

Results

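Mitophagy is the removal of damaged or surplus mitochondria by autophagy, and 9 genes that start or restrain it were followed in mouse liver across a diet and a drug treatment. They were the kinase gene Pink1, the deubiquitinase gene Usp30, and 7 receptors that tie mitochondria to the autophagosome: Bnip3, Bnip3l (NIX), Fundc1, Bcl2l13, Fkbp8, Phb2 and Nipsnap1. The rule lists gene symbols and holds no measured value, but the genes were chosen with earlier results of these data known. All 9 were among the 24787 genes of the count tables, and all were among the 14172 genes that passed the filter on low counts.

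RNA was sequenced from flash-frozen liver of C57Bl/6 mice in 3 groups of 4 libraries. The normal diet group (ND) and the high-fat diet group were fed for 2 months, after which the high-fat mice were randomised to daily intraperitoneal vehicle (HFD) or to 0.5 mg/kg MEC1 by the same route (HFD+MEC1). MEC1 is known here by its code name, and the series title presents the work as one on PROTACs that raise ubiquitin-dependent mitophagy. The labels mention injection for the high-fat mice only, so HFD minus ND compares diet together with whatever handling came with it, and those cannot be told apart. Sex, age, the length of treatment and whether each library is a separate mouse are not given in the sources used here, so p-values measure the spread between these libraries, which may be technical in part.

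In healthy mitochondria PINK1 is imported and degraded. On depolarised mitochondria it stays on the outer membrane, where it phosphorylates ubiquitin; chains of ubiquitin on the mitochondrion are bound by autophagy adaptors, and USP30 removes such chains. Receptors of the outer membrane take a second route, because each carries a motif that binds LC3 or GABARAP proteins directly. BNIP3 and NIX are induced by hypoxia and fasting, FUNDC1 is controlled by phosphorylation, BCL2L13 is the mammalian counterpart of yeast Atg32, and FKBP8 sits in the outer membrane with an FK506-binding domain. PHB2 lies in the inner membrane and NIPSNAP1 in the matrix, so both meet the autophagy machinery only after damage. Much of this control acts on proteins, and transcript levels measure neither the proteins nor mitophagy itself.

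Library totals ran from 39916405 to 51340317 counts. On a principal component plot of all tested genes, the first 2 components held 23.2% and 18.1% of the variance. HFD+MEC1 replicate 3 stood apart at -55.9 on the second component. HFD+MEC1 replicate 1 lay with the HFD libraries on the first component, at 21.7 beside 13.9 to 41.2 for HFD. There the ND libraries lay at -35.7 to -27.9 and the other treated libraries at -7.88 to 7.63. Of 10 hepatocyte markers, Cps1 and Ass1, enzymes of the urea cycle, fell in HFD against ND and in HFD+MEC1 against ND (log2 -1.18 and -0.72, then -1.14 and -1.10), and the summed level of the list was 116882 to 134680.1 CPM (counts-per-million of the library total, scaled by TMM factors) in ND, 107516 to 126580.0 in HFD and 109029 to 123326 in HFD+MEC1. The 10 Kupffer cell markers summed to 314 to 469, 379 to 593 and 443 to 600.5 in the same order of groups, and the 10 sinusoidal endothelial markers to 290 to 440, 384 to 476 and 451 to 485. The stellate cell list summed to 323 to 503, 200.3 to 482 and 277 to 462, the cholangiocyte list to 62.1 to 92.7, 41.4 to 62.1 and 38.2 to 91.4, and the erythroid list to 2224 to 5856, 2481 to 4916 and 1964 to 6744. Lymphocyte markers summed to at most 5.27 and neutrophil markers to at most 14.99 in any library, and of 8 muscle and adipose markers Acta1, Plin1 and Lep had no count in any library. By log2 difference, all 10 Kupffer cell markers were above 0 in HFD minus ND and in HFD+MEC1 minus ND (medians 0.21 and 0.36). The endothelial list gave 9 and 10 of 10, the stellate list 4 and 3 of 10, and the cholangiocyte list 2 and 1 of 8. Of all tested genes 49.4% and 50.6% were above 0. No Kupffer cell marker had an adjusted p under 0.05 by edgeR. The endothelial marker Clec4g rose in HFD+MEC1 against ND (log2 0.49, adjusted p = 0.0306 by edgeR), and the cholangiocyte marker Epcam fell (-1.59, adjusted p = 0.0148). In bulk tissue fewer cells of a type and less RNA per cell cannot be told apart, and the part of cell makeup in the results on the 9 genes was not tested.

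The 9 genes spanned a wide range of expression, from the abundant Nipsnap1 and Fkbp8 to the low Usp30 and Fundc1. Per gene length, in the deposited RPKM (read counts scaled by gene length and by depth), the mean over the 12 libraries was 86.2 for Nipsnap1 (range 54.7 to 106), 83.3 for Fkbp8 (71.5 to 96.9) and 60.2 for Phb2 (51.7 to 70.9). Pink1 followed at 47.8 RPKM (41.4 to 65.3), Bnip3 at 43.3 (30.5 to 58.3) and Bnip3l at 14.6 (12.7 to 17.2). Lowest were Bcl2l13 at 4.94 RPKM (3.89 to 5.95), Usp30 at 3.31 (2.82 to 3.92) and Fundc1 at 2.77 (2.01 to 3.31). The first 2 neighbours in this order were not separated: Nipsnap1 exceeded Fkbp8 in 8 of 12 libraries, and their ranges overlapped in every group. Pink1 and Bnip3 were likewise interleaved, with Pink1 higher in 9 of 12 libraries. The other neighbours kept their order in 12 of 12 libraries, except Usp30 over Fundc1, which held in 11, although the ranges of Phb2 and Pink1 met in HFD and those of Bcl2l13 and Usp30 in ND. The widest steps between neighbours were Bnip3 over Bnip3l, at 2.96 times by their mean RPKM, and Bnip3l over Bcl2l13, also at 2.96 times.

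**Figure D1:**
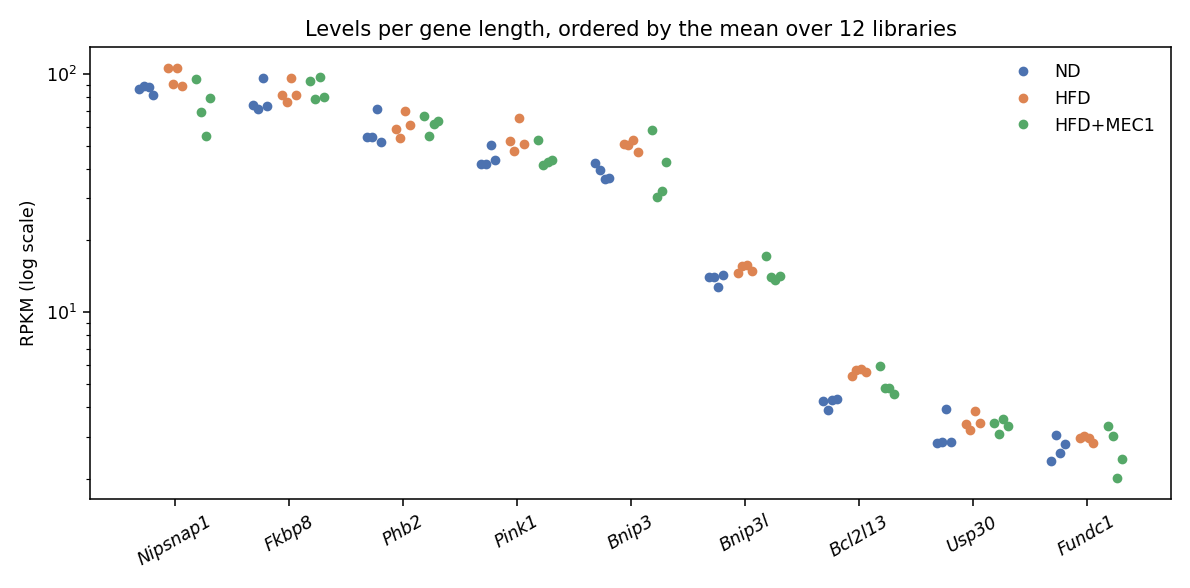
RPKM of the 9 genes in each of 12 libraries (y axis, log scale), ordered from left to right by the mean over all libraries; colours are the 3 groups. Nipsnap1 and Fkbp8 lie highest at means of 86.2 and 83.3 RPKM, and Fundc1 lies lowest at 2.77.

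Of the 9 genes 1 differed between HFD and ND. Bcl2l13 rose in HFD against ND, in a comparison where 6.30% of the 14172 tested genes passed the same threshold (an adjusted p under 0.05 in edgeR's quasi-likelihood test) and 3.35% passed it upward. The count of 1 in 9 is therefore not far from that background. The median log2 fold change of the 9 genes was 0.07 beside -0.00 over all tested genes. Of the 9 differences 7 were above 0, beside 49.4% of all tested genes. The other 2, Phb2 and Fkbp8, were also above 0 when counts were scaled by library totals or when RPKM was used (9 of 9). The median was 0.12 without ND replicate 2 and 0.05 without ND replicate 4, and it was 0.19 with library totals, which move the median of all genes as well. Unadjusted p-values lay under 0.05 for Bcl2l13 and Pink1, as for 20.7% of tested genes. Bcl2l13 and Bnip3 had no overlap between their ND and HFD libraries, both with HFD higher, and 7.46% of all tested genes separated in that direction.

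None of the 9 genes passed the threshold in HFD+MEC1 minus HFD, by edgeR, DESeq2 or limma-voom. In that comparison edgeR called 4 of 14172 genes, or 0.0282%, while DESeq2 called 389 and limma-voom 2. Unadjusted p-values lay under 0.05 for 3 of the 9, namely Nipsnap1, Pink1 and Bcl2l13, each lower with MEC1, where 14.8% of all tested genes did so. Of the 9 differences 7 were below 0 (8 with library totals), while 51.1% of all tested genes were above 0. The median over the 9 genes was -0.12 on the log2 scale beside 0.01 over all tested genes. That median is the value of Fundc1; it became -0.07 without HFD+MEC1 replicate 3 and -0.19 without HFD+MEC1 replicate 1. The 95% intervals reached no further than 0.28 upward and -0.64 downward on the log2 scale. Nipsnap1 was the single gene of the 9 whose HFD and HFD+MEC1 libraries did not overlap, a separation that 3.98% of tested genes showed in the same direction.

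HFD+MEC1 minus ND shares its libraries with both comparisons above. No member passed the threshold there, and 4.54% of tested genes did. Bcl2l13 (higher) and Nipsnap1 (lower) were the 2 with an unadjusted p under 0.05, a share that 19.1% of tested genes reached. For Bcl2l13 the HFD+MEC1 libraries all lay above the ND libraries, as they did for 5.13% of tested genes. The differences of the other 7 genes lay between -0.09 for Fundc1 and 0.07 for Fkbp8.

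**Figure D2:**
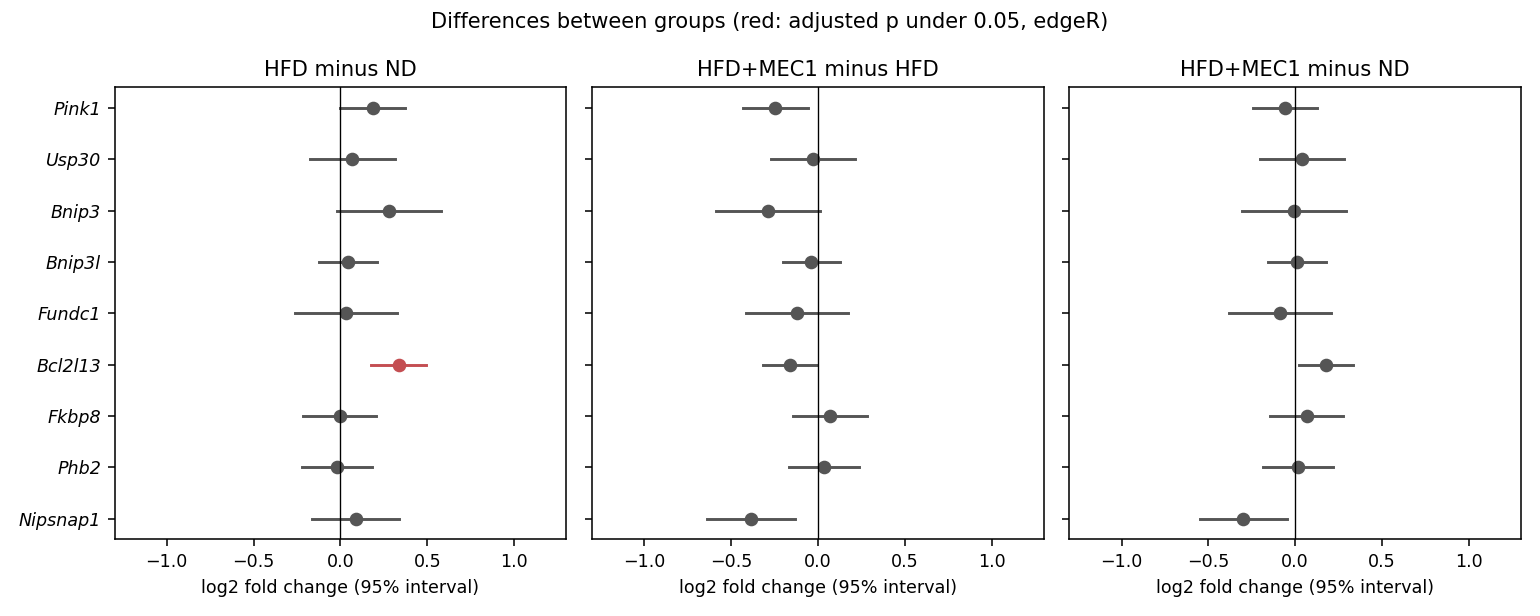
Log2 fold change (x axis) of each of the 9 genes in the 3 comparisons, with its 95% interval from the edgeR fit; red marks an adjusted p under 0.05. Bcl2l13 in HFD minus ND, at 0.33, is the one red point.

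For 3 of the genes there was a comparison in which the groups did not overlap, and the sequence just upstream of each start is shown so that the regions can be set side by side. They are RefSeq promoter windows on GRCm38.p6, cut to the bases that lie before the first exon, printed 5′ to 3′ on the gene's own strand; RefSeq gave a window for 8 of the 9 genes. Capitals mark GC boxes (GGGCGG, or CCGCCC when read on the other strand) and the sequence CACGTG, which contains the hypoxia response core ACGTG.
Bcl2l13, chr6:120835980-120836211, plus strand: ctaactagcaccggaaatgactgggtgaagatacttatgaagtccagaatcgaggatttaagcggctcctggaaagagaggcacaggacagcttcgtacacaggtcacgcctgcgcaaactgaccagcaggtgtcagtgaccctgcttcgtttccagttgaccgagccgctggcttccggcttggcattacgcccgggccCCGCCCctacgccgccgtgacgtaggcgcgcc
Bnip3, chr7:138909520-138909756, minus strand: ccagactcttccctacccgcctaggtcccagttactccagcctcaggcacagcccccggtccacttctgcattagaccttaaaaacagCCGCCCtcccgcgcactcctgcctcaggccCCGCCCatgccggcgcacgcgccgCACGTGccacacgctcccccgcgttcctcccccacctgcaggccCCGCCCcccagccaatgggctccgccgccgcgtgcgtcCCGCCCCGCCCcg
Nipsnap1, chr11:4873701-4873950, plus strand: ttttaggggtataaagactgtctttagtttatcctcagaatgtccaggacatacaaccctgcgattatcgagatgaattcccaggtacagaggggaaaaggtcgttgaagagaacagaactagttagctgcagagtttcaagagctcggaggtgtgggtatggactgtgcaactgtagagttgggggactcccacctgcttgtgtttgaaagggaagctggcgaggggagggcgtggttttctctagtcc

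The Bnip3 stretch is the richest of these in such matches, with 5 GC boxes and the CACGTG. Bcl2l13 has a single GC box and no ACGTG, and Nipsnap1 has neither. On both strands of the 250 upstream bases, ACGTG was found in 3 of the 8 members with a window (Bnip3, Fkbp8 and Phb2) and in 16.6% of 32817 windows in all. CACGTG, which overlaps it, was found in Bnip3 alone of the 8 and in 6.02% of all windows. A GC box was found in Bcl2l13, Bnip3, Fkbp8, Phb2 and Pink1 and in 32.7% of windows. Neither the FOXO motif GTAAACA (3.16% of windows) nor the direct repeat of AGGTCA with 1 base between the copies (0.0335%), which PPAR receptors can bind, was in any of the 8. These are matches of letters in a short window and say nothing on binding.

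Among the outer-membrane receptors, Bcl2l13 gave the clearest difference between the diets. The gene lies at chr6:120836212-120892842 on the plus strand (GRCm38, GENCODE M21 annotation). Its level in ND replicates 1 to 4 was 39.4, 37.2, 37.5 and 38.6 CPM, in HFD 46.3, 50.2, 46.4 and 49.8, and in HFD+MEC1 47.4, 42.1, 42.3 and 40.8. Every HFD library lay above every ND library, and the HFD+MEC1 libraries lay above ND but reached into the HFD range through replicate 1. The means were 38.2 ± 1.02 (SD, n = 4) in ND, 48.2 ± 2.11 in HFD and 43.1 ± 2.92 in HFD+MEC1. The rise in HFD against ND was 0.33 ± 0.07 (SE) on the log2 scale, or 26.1% with a 95% interval of 13.2 to 40.6% (adjusted p = 0.0132 by edgeR), and it ranked 352 among all tested genes by p. It passed the threshold under all 21 alternative settings, at 0.31 to 0.46 and adjusted p-values of 0.00107 to 0.0413.

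For Bcl2l13 the other differences were smaller. HFD+MEC1 minus HFD was -0.16 ± 0.07 (adjusted p = 0.329) and HFD+MEC1 minus ND was 0.18 ± 0.07 (adjusted p = 0.202), both by edgeR. Bid, a proapoptotic BCL2-family gene, overlaps 6.909% of the exonic bases of Bcl2l13 from the opposite strand, and the use of strand in counting is not stated. Bid itself was at 9.58 ± 0.908, 10.5 ± 1.02 and 9.73 ± 1.77 CPM in the 3 groups, and its difference in HFD minus ND was 0.13 ± 0.14 (adjusted p = 0.649). Over the 12 libraries the genes whose centred log2 CPM lay closest to that of Bcl2l13 were 2900097C17Rik, Mttp and March5, with root mean square differences of 0.0589, 0.0609 and 0.0630 beside an SD of 0.156 for Bcl2l13 itself. Mttp loads lipid onto nascent lipoproteins, and March5 is an outer-membrane ubiquitin ligase that acts on FUNDC1. None of the 3 passed the threshold in HFD minus ND, where their log2 differences were 0.23, 0.26 and 0.25 with adjusted p-values of 0.0725, 0.0922 and 0.0519 by edgeR. These genes were picked for closeness over the same libraries, so their likeness to Bcl2l13 in these differences follows from the choice.

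Bnip3, the hypoxia-induced receptor on the minus strand of chr7:138890836-138909519, had the widest relative spread of the 9 genes within HFD+MEC1. Its CPM was 99.7, 95.9, 80.8 and 83.1 in ND, 111, 112, 108 and 105 in HFD and 118, 68.3, 72.6 and 98.3 in HFD+MEC1. The HFD libraries lay close together and above all ND libraries, while the HFD+MEC1 libraries spread from below every ND value to above every HFD value. The coefficient of variation was 2.83% in HFD and 26.1% in HFD+MEC1. HFD minus ND was 0.28 ± 0.14 with a 95% interval of -0.02 to 0.58 (adjusted p = 0.282), and HFD+MEC1 minus HFD was -0.29 ± 0.14 with an interval of -0.59 to 0.01 (adjusted p = 0.356). Neither difference passed edgeR's threshold. The treated mean depended on single libraries: without HFD+MEC1 replicate 1 the difference from HFD was -0.45 (adjusted p = 0.0510), and without replicate 2 it was -0.18 (adjusted p = 0.639). The promoter with the CACGTG printed above belongs to this gene.

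Counts of Bnip3 and Bnip3l carry a limit of their own. Copies of Bnip3 in GENCODE M21, among them Gm16439 (98.94% identical over 564 bases), Gm6532 (98.57% over 559) and AC160336.1 (98.25% over 858), have no entry in the count tables, and Gm45507 covers 22.25% of the exonic bases of Bnip3 on the opposite strand. A copy named Bnip3l-ps matches Bnip3l at 99.25% over 663 bases and is likewise not listed. Reads could have been shared among them, so both levels are uncertain to that extent.

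Bnip3l encodes NIX, the receptor that clears mitochondria from maturing red cells, and lies on the minus strand of chr14:66985239-67008877. Its CPM was 61.1, 62.9, 52.1 and 60.2 in ND, 58.8, 64.6, 59.2 and 61.4 in HFD and 63.9, 57.6, 56.4 and 59.9 in HFD+MEC1. The 3 groups overlapped throughout. HFD minus ND was 0.05 ± 0.08 with a 95% interval of -8.07 to 15.8%, and HFD+MEC1 minus HFD was -0.04 ± 0.08 with an interval of -13.1 to 9.43%. The paralogues were not expressed alike. The RPKM of Bnip3 divided by that of Bnip3l was 2.80 ± 0.193 (SD, n = 4) in ND, 3.29 ± 0.140 in HFD and 2.74 ± 0.567 in HFD+MEC1. This ratio ran from 2.54 to 3.00 in ND and from 3.16 to 3.46 in HFD, without overlap. The two-sided exact permutation p of that difference was 0.0286, the smallest that 4 libraries against 4 allow, and 0.343 after adjustment over the 12 ratio tests run; at that number of tests a single ratio with the smallest p cannot pass 0.05, so the adjusted value says nothing either way.

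Fundc1, the receptor governed by phosphorylation during hypoxia (minus strand of chrX:17556564-17572325), was among the low members. Its CPM was 9.75, 13.03, 10.01 and 11.2 in ND, 11.3, 11.9, 10.6 and 11.1 in HFD and 11.8, 11.8, 7.91 and 9.75 in HFD+MEC1. The groups overlapped, and HFD+MEC1 replicate 3, the library that stood apart, gave the lowest value of all 12. Differences were 0.03 ± 0.14 for HFD minus ND and -0.12 ± 0.14 for HFD+MEC1 minus HFD, with 95% intervals of -16.5 to 25.1% and -24.9 to 12.7%. Without HFD+MEC1 replicate 3 the second was -0.0076, and without HFD+MEC1 replicate 1 or 2 it was -0.19. Fkbp8, whose product binds LC3A and is also known as an inhibitor of apoptosis, lies at chr8:70527724-70535328 on the plus strand. Its CPM was 189, 188, 232 and 180.1 in ND, 193, 184, 213 and 197 in HFD and 204, 189, 235 and 198 in HFD+MEC1. One library per group stood highest, replicate 3 each time, and the groups overlapped. Differences were -0.00 ± 0.10 and 0.07 ± 0.10 in the same 2 comparisons, with intervals of -13.8 to 15.5% and -9.29 to 21.5%.

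Nipsnap1, the matrix protein that gathers on the surface of depolarised mitochondria and recruits autophagy adaptors, gave the largest difference under MEC1 among the 9 genes. It lies at chr11:4873951-4894200 on the plus strand. Its CPM was 218, 231, 209.6 and 198 in ND, 247, 218, 231 and 213 in HFD and 205, 166, 131 and 194 in HFD+MEC1. All 4 HFD+MEC1 libraries lay below all 4 HFD libraries, while replicate 1 lay inside the ND range and the other 3 below it, replicate 3 lowest. The means were 214 ± 13.9 (SD, n = 4) in ND, 227 ± 15.3 in HFD and 174 ± 33.2 in HFD+MEC1. HFD+MEC1 minus HFD was -0.38 ± 0.12 on the log2 scale, a difference of -23.4% with a 95% interval of -35.7 to -8.73%, and its adjusted p by edgeR was 0.163, which does not pass. DESeq2 gave an adjusted p of 0.0740 for the same difference.

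The call on Nipsnap1 depended on 1 library. Without HFD+MEC1 replicate 1, which lay with HFD on the first principal component, the difference was -0.47 and passed edgeR's threshold (adjusted p = 0.0438). In that fit 460 of all tested genes passed, against 4 with all libraries. Without HFD+MEC1 replicate 3 the difference was -0.27 (adjusted p = 0.340). Over all 21 alternatives it ran from -0.47 to -0.27 with adjusted p-values of 0.0438 to 0.344, and 1 of the 21 passed. HFD+MEC1 minus ND was -0.30 ± 0.12 (adjusted p = 0.179) and HFD minus ND 0.09 ± 0.12 (adjusted p = 0.738). Without HFD+MEC1 replicate 3 the former was -0.18 (adjusted p = 0.380), and without HFD replicate 1 the latter was 0.04. Its paralogue Nipsnap2 gave -0.15 ± 0.12 in HFD+MEC1 minus HFD (adjusted p = 0.600), and the RPKM of Nipsnap1 divided by that of Nipsnap2 was 20.4 ± 1.87 in HFD and 17.3 ± 3.61 in HFD+MEC1.

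Phb2, the inner-membrane prohibitin, lies at chr6:124712336-124716950 on the plus strand. Its CPM was 99.2, 103, 123 and 91.4 in ND, 99.8, 94.1, 111 and 106 in HFD and 105, 95.8, 108 and 113 in HFD+MEC1. The groups overlapped, and the widest spread was within ND. Differences were -0.02 ± 0.10 in HFD minus ND and 0.04 ± 0.10 in HFD+MEC1 minus HFD, with 95% intervals of -14.2 to 13.5% and -10.8 to 18.0%. PHB2 works in a ring with PHB, and the RPKM of Phb2 divided by that of Phb was 2.17 ± 0.196 in ND, 2.02 ± 0.152 in HFD and 2.40 ± 0.190 in HFD+MEC1. The last 2 gave an exact permutation p of 0.0571, or 0.343 adjusted over the 12 ratio tests.

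Pink1, the kinase that marks damaged mitochondria, was highest in HFD by its mean, but its groups overlapped in every comparison. It lies on the minus strand of chr4:138313409-138326307. Its CPM was 132, 137, 151 and 134 in ND, 154, 143, 179 and 154 in HFD and 144, 125, 129 and 134 in HFD+MEC1. HFD replicate 3 was the highest of the 12 libraries, and HFD replicate 2 lay below both ND replicate 3 and HFD+MEC1 replicate 1. The means were 139 ± 8.47 (SD, n = 4), 158 ± 15.4 and 133 ± 8.38. HFD minus ND was 0.19 ± 0.09 (adjusted p = 0.241), with a 95% interval of 0.024 to 29.3%, and HFD+MEC1 minus HFD was -0.24 ± 0.09 (adjusted p = 0.209), with an interval of -25.8 to -4.00%. Neither passed edgeR's threshold over all genes. Without HFD replicate 3 the first was 0.12 (adjusted p = 0.557) and the second -0.18 (adjusted p = 0.454).

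Usp30, whose product strips ubiquitin from the outer membrane, was low and did not differ past the threshold. It lies at chr5:114065461-114124720 on the plus strand, with 8.08% of its exonic bases overlapped on the other strand by Alkbh2 and Svop. Its CPM was 10.5, 10.98, 13.9 and 10.3 in ND, 11.8, 11.4, 12.5 and 12.2 in HFD and 11.04, 10.99, 12.7 and 12.2 in HFD+MEC1. ND replicate 3 stood highest and the groups overlapped. Differences were 0.07 ± 0.11 and -0.03 ± 0.11, with intervals of -11.3 to 24.1% and -17.2 to 15.8%.

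**Figure D3:**
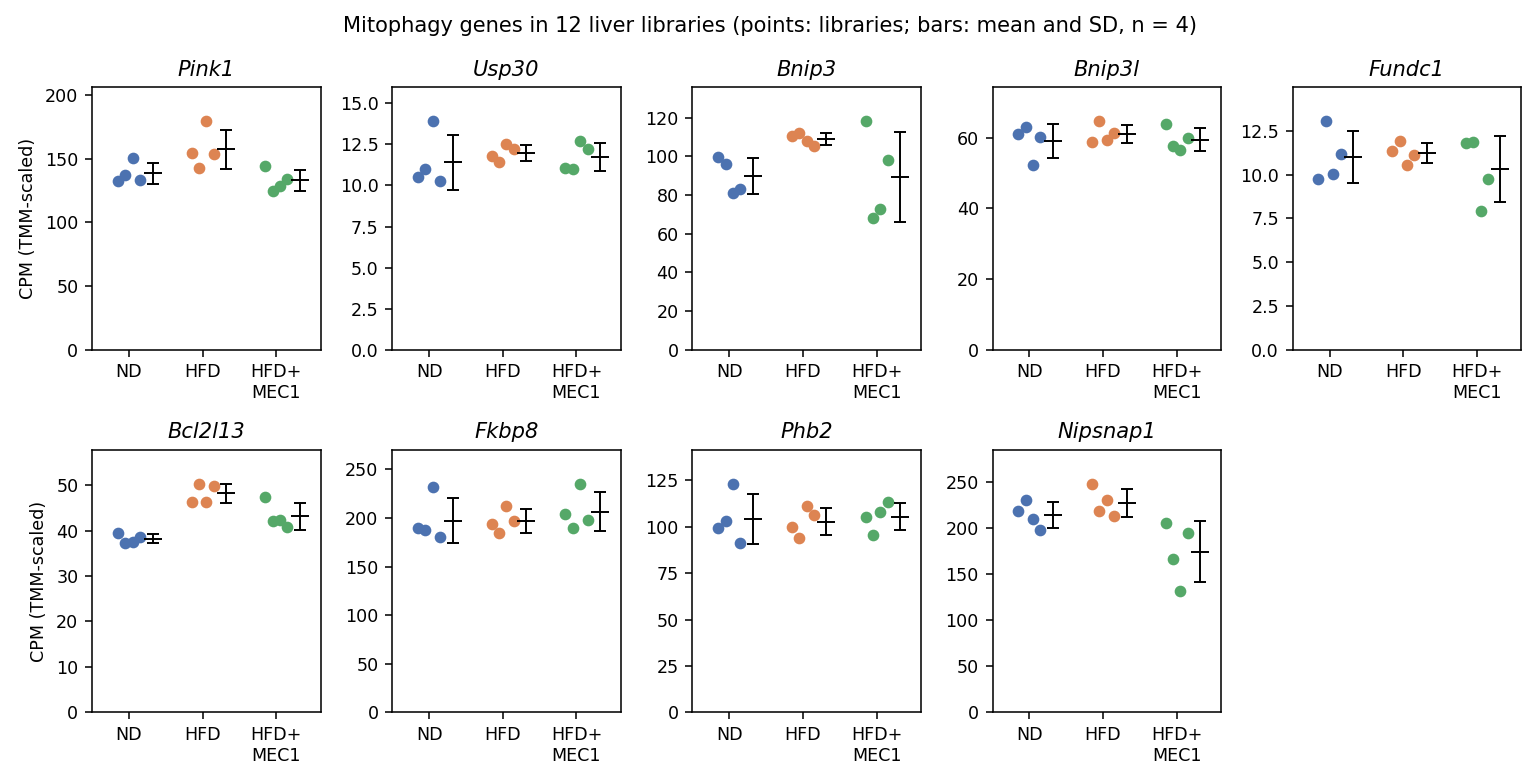
TMM-scaled CPM (y axis, from 0) of the 9 genes in each library, by group; points are libraries and bars give the mean and SD of 4. Bcl2l13 separates ND (37.2 to 39.4) from HFD (46.3 to 50.3), all 4 HFD+MEC1 libraries of Nipsnap1 lie below HFD, and Bnip3 spreads widely in HFD+MEC1.

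Within a group the members did not all vary together, and the highest and lowest libraries differed between genes. HFD replicate 3 was the highest HFD library for 4 of the 9 genes (Pink1, Usp30, Phb2 and Fkbp8), and HFD replicate 2 was the lowest for those same 4 and the highest for Bnip3, Bnip3l, Fundc1 and Bcl2l13. Of all tested genes, 25.5% were highest in HFD replicate 3, and 26.0% lowest and 26.1% highest in HFD replicate 2. In ND, replicate 3 was highest for Pink1, Usp30, Phb2 and Fkbp8 and lowest for Bnip3 and Bnip3l, beside 28.1% and 27.1% of all tested genes. HFD+MEC1 replicate 1 was the highest treated library for Pink1, Bnip3, Bnip3l, Bcl2l13 and Nipsnap1, and the lowest for none of the 9. Of all tested genes, 26.7% were highest in that library within its group and 26.8% lowest.

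The genes around the receptors were taken from 10 lists that together held 132 tested genes. In HFD minus ND, 7 rose and 2 fell, a called share of 6.82% beside 6.30% of all tested genes, and their median log2 fold change was 0.05. In HFD+MEC1 minus HFD, edgeR called 0 of the 132, with 24 at an unadjusted p under 0.05 (18.2%, beside 14.8% of all tested genes) and a median of -0.06; DESeq2 called 2 higher and 3 lower, limma-voom 0, and edgeR without HFD+MEC1 replicate 1 called 1 lower. In HFD+MEC1 minus ND, 5 rose and 3 fell, or 6.06% beside 4.54% of all tested genes, with a median of -0.02. The called shares of the lists were thus near those of all genes. The split depended on scaling, with library totals or RPKM giving 9 higher and 1 lower in HFD minus ND, and 9 and 1 (library totals) or 6 and 0 (RPKM) in HFD+MEC1 minus ND. Without ND replicate 4, the HFD minus ND calls came to 3 higher and 1 lower.

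Of 13 tested regulators of BNIP3 and NIX 1 rose in HFD minus ND: Ppara, the fatty acid receptor that drives fasting genes, went from 137 ± 16.2 CPM (SD, n = 4) to 223 ± 13.1, a log2 change of 0.70 ± 0.11 (adjusted p = 0.00187 by edgeR). The list median was 0.06. Ppara was also higher in HFD+MEC1 than in ND, by 0.85 ± 0.11 (adjusted p = 0.000670), and both calls held under all 21 alternatives. Epas1, which encodes HIF-2α, rose in HFD+MEC1 against ND, by 0.56 ± 0.13 (adjusted p = 0.0241), a call lost without ND replicate 1, ND replicate 2 or HFD+MEC1 replicate 3 (adjusted p = 0.0616, 0.0683 and 0.0663). Against HFD, Epas1 was 0.48 ± 0.13 higher with MEC1 at an adjusted p of 0.134, and Fbxl4, the ligase subunit that keeps BNIP3 and NIX low, was at -0.23 ± 0.11 (adjusted p = 0.334).

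Targets of the hypoxia factors moved in both directions with diet. Of 20 tested, Ldha, which makes lactate from pyruvate, rose from 660.3 ± 67.9 CPM in ND to 1163 ± 208 in HFD (log2 0.82 ± 0.16, adjusted p = 0.00759), while the growth factor gene Vegfa fell by 0.66 ± 0.15 (adjusted p = 0.0166) and the glucose transporter gene Slc2a1 fell by 0.63 ± 0.16 (adjusted p = 0.0311). The median of the list was 0.11. Vegfa was lost without HFD replicate 3 (adjusted p = 0.0597), and Slc2a1 in 9 of 21 alternatives. With MEC1 against ND, Ldha was higher by 1.14 ± 0.16 (adjusted p = 0.00119), and Vegfa and Pgk1, a glycolytic kinase gene, fell as well, with log2 changes of -0.63 ± 0.15 and -0.31 ± 0.08 (adjusted p = 0.0256 and 0.0398), which 7 and 15 of the 21 alternatives lost. With MEC1 against HFD none of the 20 passed; the smallest p-values belonged to Pdk1, a brake on pyruvate entry, at -0.77 ± 0.19 (adjusted p = 0.113), and to Slc2a1 at 0.58 ± 0.16 (adjusted p = 0.138).

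Of 15 FOXO targets, Txnip, a glucose-responsive inhibitor of thioredoxin, rose in HFD against ND by 0.51 ± 0.13 (adjusted p = 0.0335), and it lost the call in 6 of 21 alternatives, each leaving out 1 ND or HFD library. The list median was 0.06. G6pc, the last enzyme of glucose release, fell in HFD+MEC1 against ND (-1.20 ± 0.28, adjusted p = 0.0356, lost in 12 of 21 alternatives), and against HFD it was at -1.15 ± 0.28 (adjusted p = 0.119). Among 17 regulators of FUNDC1 and relatives or partners of the receptors, 2 rose with diet. Ulk1, the kinase that phosphorylates FUNDC1, went from 35.4 ± 5.07 to 55.8 ± 13.1 CPM (0.66 ± 0.16, adjusted p = 0.0263), a call that leaving out ND replicate 1, 2 or 4 or HFD replicate 3 or 4 ended. Nipsnap3b, a relative of Nipsnap1, went from 60.5 ± 4.06 to 82.4 ± 4.66 CPM (0.45 ± 0.08, adjusted p = 0.00289), which held in all 21. Both were also higher in HFD+MEC1 than in ND, by 0.67 ± 0.16 and 0.35 ± 0.08 (adjusted p = 0.0298 and 0.0147), with Nipsnap3b lost without ND replicate 4 (adjusted p = 0.0617) and Ulk1 lost in 6 of 21 alternatives.

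Of 17 genes that import, cleave or stabilise PINK1, 9 were above 0 and 1 passed in HFD minus ND, with a median of 0.00. Their summed level, in which abundant members weigh most, was 872 to 938 CPM in ND, 989 to 1137 in HFD and 917 to 1023 in HFD+MEC1. The mean of that sum was 909 in ND and 1034 in HFD, and most of its rise lay in 1 gene, Hsp90aa1. This cytosolic chaperone, which stabilises PINK1, rose from 216 ± 23.5 to 321 ± 62.8 CPM (0.57 ± 0.14, adjusted p = 0.0242 by edgeR). Hsp90aa1 lost the call without ND replicate 3, ND replicate 4 or HFD replicate 2 (adjusted p = 0.0798, 0.0670 and 0.0794). With MEC1 against HFD the median was -0.03, and Pmpcb, a subunit of the matrix peptidase that cuts PINK1, was at -0.27 ± 0.08 (adjusted p = 0.157). Of 11 ubiquitin ligases and deubiquitinases of mitochondria none passed in any comparison, with medians of -0.08 in HFD minus ND and -0.09 in HFD+MEC1 minus HFD. March5 came nearest, at 0.25 ± 0.07 in HFD minus ND (adjusted p = 0.0519) and -0.17 ± 0.07 with MEC1 against HFD (adjusted p = 0.296). The 11 outer-membrane proteins that are ubiquitinated during mitophagy gave no call either, with medians of 0.01 and -0.04; Cisd1, an iron-sulphur protein, was at -0.30 ± 0.12 with MEC1 against HFD (adjusted p = 0.248).

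The autophagy side was followed in 9 adaptors and their kinase, of which Calcoco2 had no count and 8 were tested, and in 5 LC3 and GABARAP genes. Calcoco1, an adaptor better known for clearing endoplasmic reticulum and Golgi, rose in HFD from 15.6 ± 1.02 to 23.2 ± 2.598 CPM (0.57 ± 0.13, adjusted p = 0.0154), a call lost without ND replicate 1, ND replicate 4 or HFD replicate 3. The median of the 8 was 0.10. All 5 LC3 and GABARAP genes were above 0 in HFD minus ND with a median of 0.14, beside 49.4% of all tested genes. None of the 5 passed, with Map1lc3a at 0.29 ± 0.10 (adjusted p = 0.115) and Gabarapl1 at 0.29 ± 0.13 (adjusted p = 0.196), by edgeR. With MEC1 against HFD, the kinase gene Tbk1 was at 0.25 ± 0.09 (adjusted p = 0.200) and Map1lc3b at 0.29 ± 0.11 (adjusted p = 0.232).

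**Figure D4:**
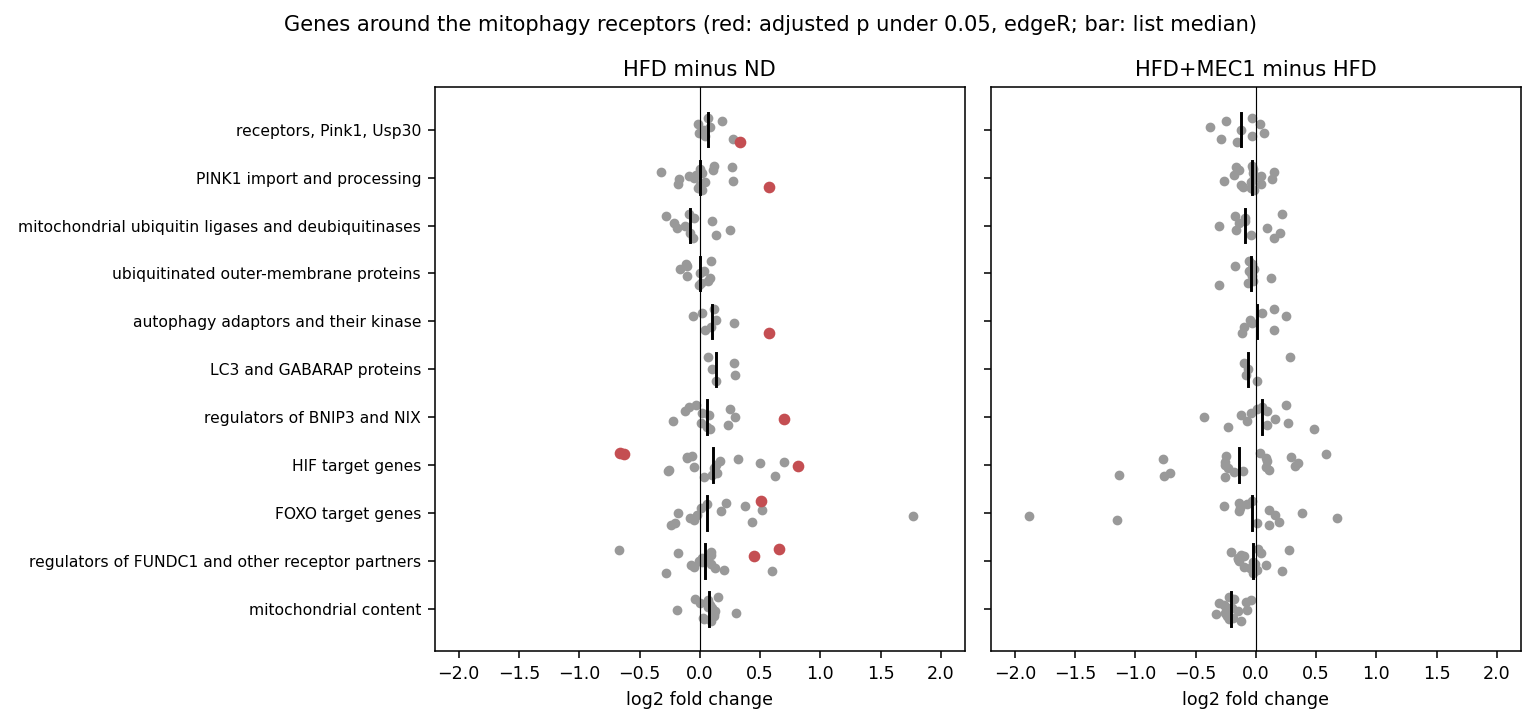
Log2 fold change (x axis) of the 9 genes and of the genes in 10 surrounding lists (y axis), in HFD minus ND on the left and HFD+MEC1 minus HFD on the right; red points have an adjusted p under 0.05 in edgeR and the black bar is the list median. Red points appear on the left only, and in the right panel every gene of the list named mitochondrial content lies below 0, with a median of -0.21.

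Nuclear genes of mitochondrial enzymes and import, the list named mitochondrial content, lay in the same direction as Nipsnap1, though none of 16 passed in any comparison. Their transcripts do not measure the content of mitochondria itself. In HFD minus ND 14 of 16 were above 0 (15 with library totals), with a median of 0.08, beside 49.4% of all tested genes. In HFD+MEC1 minus HFD 0 of 16 were above 0, with a median of -0.21 (also 0 of 16 with library totals or RPKM). There 51.1% of all tested genes were above 0. The summed level of the 16 genes was 4273 to 4695 CPM in ND, 4590 to 5061 in HFD and 3620 to 4468 in HFD+MEC1. The treated libraries thus lay below all HFD libraries. How often sums of other genes separate in this way was not measured. The 16 genes may vary together, and the medians of this list were not taken with a library left out. The list was also chosen with earlier results of these data known, so its counts are not independent of them. Citrate synthase, Cs, was at -0.33 ± 0.10 with MEC1 against HFD (adjusted p = 0.158) and Cox4i1, of complex IV, at -0.24 ± 0.08 (adjusted p = 0.204). The part of such a shift in the Nipsnap1 difference was not tested.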

How the data were processed

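For each library the authors deposited unnormalised counts of reads by gene symbol, and for the series a table of RPKM, per the file headers. The submitters' processing notes name STAR 2.7.10a and mm10; the counting tool, annotation and strand setting are not given in the sources used here. Of counts from 1 to 20, 70.1 to 74.7% were even, so read ends rather than pairs appear to be counted. Another 12 RPKM columns match no sample and were not analysed here. Between replicates of a group the chi-square per gene was at least 35.9, so no library was a copy of another in its group. Libraries of different groups were not compared in this way.

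Counts were filtered (filterByExpr), scaled by TMM and fitted over 3 groups with edgeR 4.0.16 (R 4.3.3); the quasi-likelihood F-test was two-sided, with Benjamini-Hochberg adjustment over 14172 genes and a threshold of 0.05. These hold 99.98% of counts; the common biological coefficient of variation was 0.200. A count of 3 equals 0.0590 to 0.0770 CPM. Alternatives were DESeq2 1.42.0, limma-voom (limma 3.58.1), RLE factors, library totals, no filter, limma on log2(RPKM + 0.1) and log2(RPKM + 1), a replicate block, only the 2 groups compared, and leaving out each library. The fit was tested on simulated data for HFD+MEC1 minus HFD with 14172 genes. There edgeR recovered 3, 21, 36 and 44 of 50 genes changed 1.25, 1.5, 2 and 4-fold, with 8 false calls. DESeq2 recovered 4, 26, 38 and 47, with 23 false calls. The simulated counts were drawn gene by gene, with no treated library standing apart as HFD+MEC1 replicate 3 did here. The recoveries therefore need not hold for the deposited libraries.

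The members and lists were chosen with earlier results of these data known. The rule for members finds 10 genes, of which 1 is not reported here. Named genes were all other members, list genes past the threshold or else the 2 of smallest p (some are given by count only), and the 3 nearest in pattern to a member that passed. Coordinates are 1-based.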

Additional observations from a re-analysis of the deposited data

How the results depend on the processing

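Of 27 differences of the 9 genes (9 in each of 3 comparisons), 15 kept their direction under all 21 alternatives and 12 reversed under at least 1; none of those 12 passed the threshold under any alternative. Bcl2l13 was the 1 member called in HFD minus ND under all 21, including the replicate block (1 member called), and the block also left 0 members called in the other comparisons. After each gene's group mean of log2 CPM was subtracted, same-numbered libraries of different groups correlated at -0.094 to 0.133, with 1 of 12 pairs over 0.1. Differently numbered libraries of different groups correlated at -0.296 to 0.170, and 4 of 12 libraries were closest to their own number. These weak values showed no clear pairing by number, but they cannot exclude a batch that same-numbered libraries share. Usp30 and Fkbp8 were highest in replicate 3 of each group, and no other member was highest in the same-numbered library of every group. The share of all tested genes that behave so was not measured, so these cases have no background to be read against. In HFD+MEC1 minus HFD the members called ranged from 0 to 1 when 1 library was left out (1 without HFD+MEC1 replicate 1). Library totals moved the median of all genes by 0.12 in HFD minus ND, and the share of calls that were higher was 79.5% against 53.2% with TMM. Reversed log2 values in HFD minus ND were, for Fkbp8, 0.00017 with limma-voom, 0.12 with library totals, 0.096 and 0.095 with log2(RPKM + 0.1) and log2(RPKM + 1), and 0.0018 with the block; for Phb2 they were 0.11, 0.081 and 0.080 with library totals and the same RPKM scales. Phb2 in HFD+MEC1 minus HFD was -0.018 with library totals. In HFD+MEC1 minus ND, library totals and both RPKM scales gave 0.016, 0.021 and 0.021 for Pink1 and 0.077, 0.040 and 0.040 for Bnip3. Leaving out 1 library gave, in HFD minus ND, -0.026 to 0.12 for Fundc1, -0.017 to 0.071 for Bnip3l, -0.080 to 0.064 for Phb2 and -0.048 to 0.077 for Fkbp8. In HFD+MEC1 minus HFD it gave -0.0023 to 0.083 for Phb2 and -0.065 to 0.0023 for Usp30. In HFD+MEC1 minus ND it gave -0.17 to 0.098 for Bnip3, -0.039 to 0.11 for Phb2, -0.16 to 0.019 for Fundc1, -0.049 to 0.039 for Bnip3l and -0.0089 to 0.14 for Usp30. The cause was not tested. Genes called among all 14172 tested were 893, 4 and 644 in the 3 comparisons with edgeR, 1391, 389 and 1155 with DESeq2, and 896, 21 and 716 with the block; HFD+MEC1 minus HFD ran from 0 to 460 when 1 library was left out.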
